A study of Mus musculus with 7 samples.

Results

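The SLAM (signalling lymphocytic activation molecule) family receptors that sit together on mouse chromosome 1 were followed in bone marrow lacking Aim2. Aim2 encodes a sensor of DNA in the cytosol and lies on the same chromosome arm. The members were 8 genes chosen by family, Slamf1, Slamf6, Slamf7, Slamf8, Slamf9, Cd48, Cd84 and Ly9, out of 35498 genes to which transcripts could be joined. All 8 passed the filter on low counts, which left 14238 genes. The 2 groups were 3 libraries from mice with the genotype Aim2 knock out (KO), also called AIM2 null in the labels, and 4 libraries from WT mice. All mice were females aged 5 to 6 months, and the labels name no treatment. They give neither the strain, nor how the deletion was made, nor whether the libraries come from separate mice. The p-values therefore speak of the spread among these 7 libraries, which may be technical.

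SLAM receptors are surface proteins of blood cells with immunoglobulin domains outside the cell. Most of them bind a copy of themselves on a neighbouring cell, while CD48 binds CD244 and, in mice, CD2. The tails of SLAMF1, SLAMF6, SLAMF7, CD84 and LY9 hold switch motifs built around a tyrosine. Once phosphorylated, these recruit the small adaptors SAP and EAT-2, or phosphatases in their absence. In marrow the family is best known from stem cell sorting, where SLAMF1 marks long-term stem cells and CD48 marks the progenitors that have left that state. The cluster is also known to vary in sequence between inbred mouse strains, and mouse SLAMF6, called Ly108, is known in several forms with different tails.

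The sequences that carry the results on splicing are the coding exons of the tails of Slamf6 and Slamf7, since the transcripts that stood apart between the groups differ there. They are given from GENCODE M21 on GRCm38, 5′ to 3′ on the coding strand, and capitals mark in-frame codons that match the switch motif. The search was for 6 codons of which the first encodes threonine, the third tyrosine and the last valine or isoleucine. In Slamf6 (plus strand) the first exon below stands in all 3 of the transcripts compared, the second is skipped in Slamf6-204, and the last coding stretch is long in Slamf6-207 and Slamf6-204 but short in Slamf6-201.
Slamf6 shared tail exon (chr1:171939396-171939469): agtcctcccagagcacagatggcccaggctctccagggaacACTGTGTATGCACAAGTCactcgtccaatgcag
Slamf6 skipped exon (chr1:171941625-171941696): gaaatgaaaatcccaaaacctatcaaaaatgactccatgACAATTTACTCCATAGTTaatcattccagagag
Slamf6 long end (chr1:171947999-171948070): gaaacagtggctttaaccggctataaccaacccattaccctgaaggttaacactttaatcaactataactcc
Slamf6 short end (chr1:171942578-171942589): gccgaatactct

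The skipped exon of Slamf6 has 72 bases, so leaving it out keeps the reading frame and removes 1 of 2 switch motifs. Slamf6-201 and Slamf6-207 each hold 2 motifs, and Slamf6-204 holds 1. The short end adds 4 codons after the skipped exon and the long end adds 24. In Slamf7 (minus strand) the exon before the switch-motif exon has 104 bases, which is no multiple of a codon. Its absence in Slamf7-202 and Slamf7-205 shifts the frame of the exon that follows, and 0 motifs remain in frame in either. Slamf7-201, Slamf7-203 and Slamf7-204 include it and hold 1 motif each.
Slamf7 frame-setting exon (chr1:171637297-171637400): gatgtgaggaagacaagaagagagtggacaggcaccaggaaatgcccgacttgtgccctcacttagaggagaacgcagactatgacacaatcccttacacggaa
Slamf7 switch-motif exon (chr1:171636312-171636374): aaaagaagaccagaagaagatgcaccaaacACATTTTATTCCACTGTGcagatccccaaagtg

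Of the remaining members, Slamf1-201, Cd84-204, Cd84-205, Ly9-201 and Ly9-202 each hold 2 in-frame motifs and Slamf9-201 holds 0. The transcripts of Cd48 and Slamf8-201 hold 1 match each, with 130 codons left after it in Cd48-202 and 159 in Slamf8-201. CD48 has no tail in the cell, since it is held by a lipid anchor, and a match of letters is no site. Among 58797 coding transcripts in the annotation, 6.65% held at least 1 match and 0.454% held at least 2. The motif-bearing stretches of Slamf1 (plus strand), the one member that changed as a gene, follow.
Slamf1 first switch-motif exon (chr1:171792295-171792368): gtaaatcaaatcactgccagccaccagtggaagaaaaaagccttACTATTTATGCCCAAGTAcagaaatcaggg
Slamf1 last coding segment (chr1:171799573-171799620): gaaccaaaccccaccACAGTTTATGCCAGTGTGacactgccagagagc

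Depth was even, at 20777315 to 21027429 estimated reads in KO and 20300468 to 21099972 in WT. Aim2 stood at 7.37, 2.26 and 2.67 CPM (reads scaled for depth) in the KO libraries and 32.2, 27.8, 25.9 and 25.5 CPM in the WT libraries, so each library was on the side its label gives. KO library 1 was the highest of its group for Aim2. Haemoglobin genes took 11.3 to 13.7% of reads in KO and 13.8 to 19.9% in WT, highest in WT library 1. Markers of red cells, neutrophils, monocytes, megakaryocytes and stem cells were all present, and each of their listed markers had enough reads to be tested. Markers of skeletal muscle summed to 35.8, 539 and 4521 CPM in KO against 793 to 1622 CPM in WT, and their part in the results was not tested.

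At the level of whole genes, Slamf1 was about 2-fold higher in KO marrow and was the single member that passed the test. Slamf8 and Slamf7 stood at about 0.41 and 0.51 of their WT level without passing, Slamf9 stood somewhat higher, and Cd48, Cd84, Ly9 and Slamf6 differed little. Differences were tested with edgeR (quasi-likelihood, adjusted by Benjamini-Hochberg across all tested genes), and an adjusted p under 0.05 was called a change. By that rule 1 of 8 members changed, where 0.646% of all tested genes did. Higher calls made up 0.478% of tested genes and lower calls 0.169%. Unadjusted p was under 0.05 for 4 members (Slamf1, Slamf7, Slamf8 and Slamf9), against 11.5% of tested genes.

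**Figure D1:**
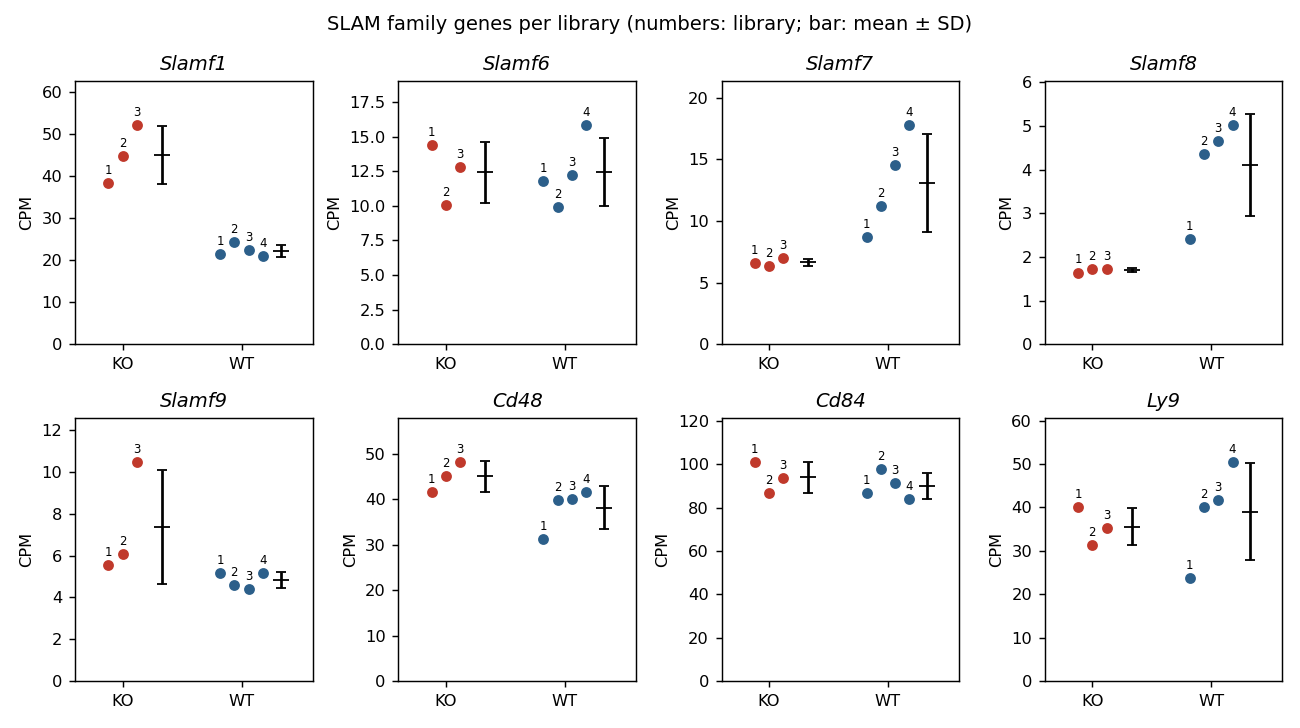
CPM of each SLAM family gene in 3 KO and 4 WT libraries, with the library number above each point and the mean ± SD as a bar. All KO points of Slamf1 (38.3 to 52.1 CPM) lie above the WT points (20.9 to 24.2 CPM), and those of Slamf7 and Slamf8 lie below.

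Slamf1 encodes CD150, a self-binding receptor that is also a receptor for bacteria on macrophages and the sorting marker of long-term stem cells. The gene (ENSMUSG00000015316.11) runs on the plus strand of chromosome 1 from 171767127 to 171801184. It had 815, 931 and 1151 reads in the KO libraries, against 399, 499, 460 and 436 reads in the WT libraries. Scaled for depth this was 38.3, 44.7 and 52.1 CPM in KO and 21.4, 24.2, 22.3 and 20.9 CPM in WT. Every KO library lay above every WT library. The mean was 45.0 ± 6.92 CPM in KO (SD, n = 3) and 22.2 ± 1.46 CPM in WT (SD, n = 4), which is 1.02 ± 0.11 on the log2 scale (SE; adjusted p = 0.011, edgeR).

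The direction of Slamf1 held in all 18 alternatives, with log2 fold changes of 0.90 to 1.16. Leaving out KO library 2 ended the call (adjusted p = 0.0558), and so did the library number as a block (adjusted p = 0.0653). Its main transcript, Slamf1-201, took 95.3 to 96.4% of the gene's TPM (the deposited level, scaled for transcript length) in KO and 93.5 to 97.8% in WT. Slamf1-201 had 757, 865 and 1085 reads in KO against 361, 482, 414 and 407 in WT, again without overlap. Tested as a transcript it differed by 1.04 ± 0.14 on the log2 scale (SE; adjusted p = 0.091, edgeR). Slamf1-202, a form with a retained intron, had 57.9, 66.3 and 66.2 reads in KO and 37.3, 17.5, 45.9 and 29.7 reads in WT (0.87 ± 0.34, SE; adjusted p = 0.726, edgeR). Markers of stem and progenitor cells summed to 174 to 202 CPM in KO and 164 to 198 CPM in WT, which overlap, and 0 of these 8 markers were called. Those of monocytes and macrophages summed to 1085 to 1251 CPM in KO and 686 to 1002 CPM in WT, and their part in the Slamf1 difference was not tested.

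In bulk marrow, fewer cells of a type and less RNA per cell cannot be told apart, which holds for every member here.

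Slamf8 encodes a myeloid receptor with a very short tail that in mice is known to restrain the oxidative burst of macrophages. It was the least abundant member in both groups. The gene (ENSMUSG00000053318.7, minus strand, 172581758 to 172590568) had 35, 36 and 38 reads in KO and 45, 90, 96 and 105 reads in WT. This came to 1.64, 1.73 and 1.72 CPM in KO and 2.41, 4.36, 4.65 and 5.02 CPM in WT. The KO libraries lay within 0.1 CPM of each other and below every WT library, while WT library 1 stood well under the other WT libraries. On the log2 scale KO differed from WT by -1.28 ± 0.26 (SE; adjusted p = 0.091, edgeR). DESeq2 and limma voom with sample weights called it (adjusted p = 0.00247 and 0.0184), as did edgeR without WT library 1 (-1.46, adjusted p = 0.0227). DESeq2 called 2.84% of genes and voom 2.14%. On log2(TPM + 1) the size was -0.69, less by over 1.5 times.

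Slamf7 encodes CRACC, a self-binding receptor of natural killer cells, B cells and plasma cells that activates killing through EAT-2. The gene (ENSMUSG00000038179.13, minus strand, 171632403 to 171653035) had 141, 132 and 154 reads in KO and 162, 231, 300 and 372 reads in WT. Levels were 6.62, 6.34 and 6.97 CPM in KO and 8.68, 11.2, 14.5 and 17.8 CPM in WT. The KO libraries were close together and all below the WT libraries, which spread about 2-fold. The log2 fold change was -0.98 ± 0.23 (SE; adjusted p = 0.137, edgeR), and DESeq2 and voom called it (adjusted p = 0.00394 and 0.0441). In TPM the groups overlapped, at 2.73, 2.39 and 2.97 in KO and 2.49, 5.03, 6.44 and 7.32 in WT. WT library 1 was the one inside the KO range.

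Summed B cell markers were lower in every KO library than in any WT library, as the reads of Slamf7 and Slamf8 were. Of 10 such markers 0 were called, all 10 had a log2 fold change below 0, and their median was -0.93, against -0.01 over all tested genes. They summed to 171 to 285 CPM in KO and 372 to 582 CPM in WT, without overlap. T cell markers also summed lower in KO (92.8 to 113 CPM) than in WT (119 to 133 CPM). Among them only Cd4 and Cd8a lay lower without overlap, and Cd3e, Cd3d, Cd3g, Cd247, Cd5 and Lat overlapped between groups. Cd4 stood at 25.1, 20.7 and 23.4 CPM in KO and 25.7, 39.2, 39.0 and 45.9 CPM in WT. Natural killer cell markers overlapped as a sum (77.7 to 87.7 CPM in KO, 60.3 to 78.9 CPM in WT). Plasma cell markers summed higher in KO (710 to 883 CPM) than in WT (445 to 679 CPM). So did those of monocytes and macrophages (1085 to 1251 CPM in KO, 686 to 1002 CPM in WT). The part of these cell types in the results for Slamf7 and Slamf8 was not tested.

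Slamf9, a receptor of macrophages and dendritic cells with a short tail, had a spread set by 1 library. The gene (ENSMUSG00000026548.4, plus strand, 172475358 to 172478575) had 118, 126 and 232 reads in KO and 96, 95, 91 and 108 reads in WT. Levels were 5.54, 6.05 and 10.5 CPM in KO and 5.15, 4.6, 4.41 and 5.17 CPM in WT. The groups did not overlap, but KO libraries 1 and 2 lay just above the WT range and KO library 3 far above it. On the log2 scale this was 0.61 ± 0.22 (SE; adjusted p = 0.359, edgeR), and 0.26 without KO library 3. A total of 4 members thus had groups that did not overlap in CPM, 2 higher and 2 lower, against 12.9% of tested genes (6.98% higher and 5.93% lower).

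Cd48, a lipid-anchored ligand on nearly all blood cells, was the most abundant member per length. The gene (ENSMUSG00000015355.13, plus strand, 171682009 to 171705258) stood at 41.6, 45.2 and 48.3 CPM in KO and 31.3, 39.8, 40.0 and 41.7 CPM in WT. The 2 ranges touched, with WT library 4 just above KO library 1 and WT library 1 below the rest. Their log2 fold change was 0.24 ± 0.11 (SE; adjusted p = 0.451, edgeR). In TPM the groups did not overlap, at 46.8 to 53.3 in KO and 25.4 to 42.3 in WT, where WT library 1 was again lowest. Tests on the TPM scale move the median of all genes by 0.13 (log2), and Cd48 had at most 0.40 under any alternative without passing.

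Cd84, a self-binding receptor of B cells, platelets and myeloid cells, had the most reads of the family. The gene (ENSMUSG00000038147.13, plus strand, 171839697 to 171890718) stood at 101, 86.8 and 93.6 CPM in KO and 86.6, 97.7, 91.3 and 83.8 CPM in WT. The groups lay in one range and differed by 0.063 ± 0.082 on the log2 scale (SE; adjusted p = 0.83, edgeR). With voom weights the value was -0.0032.

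Ly9, a self-binding receptor of lymphocytes with more immunoglobulin domains than the others, spread widely among the WT libraries. The gene (ENSMUSG00000004707.14, minus strand, 171588624 to 171607410) stood at 40.1, 31.4 and 35.2 CPM in KO and 23.6, 40.2, 41.6 and 50.5 CPM in WT. All KO libraries lay inside the WT range. The log2 fold change was -0.13 ± 0.22 (SE; adjusted p = 0.876, edgeR), and on TPM and without WT library 4 it was above 0.

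Slamf6, a self-binding receptor of T, B and natural killer cells, had overlapping levels in the groups as a gene. The gene (ENSMUSG00000015314.10, plus strand, 171917515 to 171953170) stood at 14.4, 10.04 and 12.8 CPM in KO and 11.8, 9.93, 12.2 and 15.8 CPM in WT. The log2 fold change was -0.0031 ± 0.18 (SE; adjusted p = 0.996, edgeR). Its transcripts, given further on, stood apart between the groups.

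**Figure D2:**
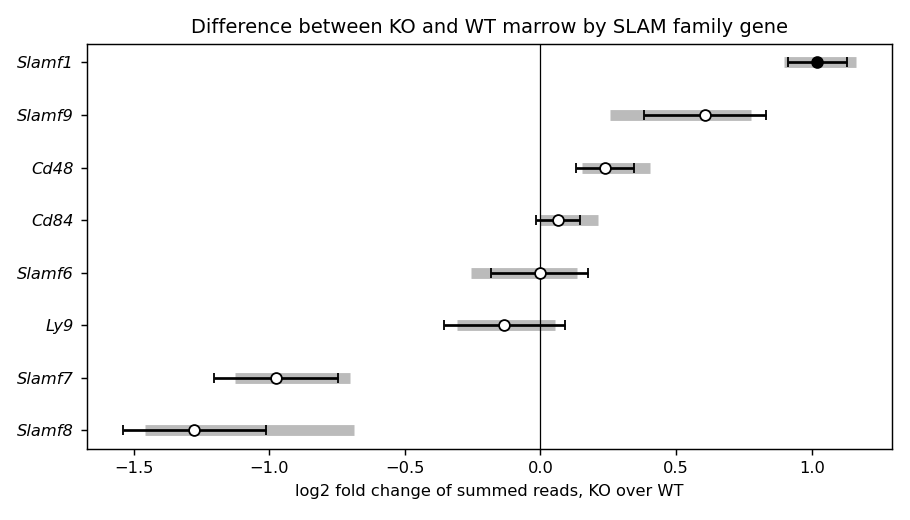
Log2 fold change of each SLAM family gene, KO over WT, with its SE as a whisker, a filled point for an adjusted p under 0.05, and a grey band for the range over 18 alternative fits. Slamf1 (1.02) is the one filled point, and the bands of Slamf7 and Slamf8 stay below 0.

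In order of TPM, which allows genes of different length to be set side by side, Cd48 and Cd84 led in both groups. In KO they averaged 49.0 and 38.0 TPM, and in WT 37.8 and 33.1 TPM. Slamf1 came next in KO at 17.9 TPM, with Ly9 at 16.04 TPM in an overlapping range. In WT these 2 were in the other order, Ly9 at 16.1 TPM and Slamf1 at 7.94 TPM, also overlapping. Slamf9 (6.74 TPM) and Slamf6 (4.77 TPM) overlapped in KO, and Slamf7 (2.70 TPM) and Slamf8 (1.12 TPM) each lay below the one before. In WT, Slamf7 (5.32 TPM), Slamf6 (5.24 TPM) and Slamf9 (4.00 TPM) overlapped from each to the next, and Slamf8 (2.50 TPM) lay below them all. The highest TPM of Slamf8 in WT was 3.06 and the lowest of Slamf9 was 3.67.

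The transcripts of the family were 29, of which 17 had enough reads to be tested among 34507. By edgeR 0 of the 17 were called, where 0.0348% of all tested transcripts were. Unadjusted p was under 0.05 for 11 of the 17, against 6.51% of tested transcripts. DESeq2 called 5 of them (Slamf1-201, Slamf6-201, Slamf6-204, Slamf7-204 and Slamf8-201), where it called 1.4% of all tested transcripts. A test of each transcript's share of its gene, with the gene's reads as an offset in edgeR, called 0 of 14 members' transcripts and 0.0174% of the 28811 tested. Its unadjusted p was under 0.05 for 6 of the 14, against 4.51%. Slamf6-204, Slamf7-201 and Slamf7-204 are in both counts of unadjusted p, and Slamf6-204 and Slamf7-204 are also among the DESeq2 calls. These transcripts passed the filter on low counts through the WT libraries alone, which favours a difference. The counts of unadjusted p and of DESeq2 calls therefore support nothing here. The usage test of edgeR (diffSpliceDGE) called 1 of the 14, Slamf6-204, and 0.187% of all tested, but 67.3% of its calls on simulated data were wrong and nothing here rests on it. On data simulated at this depth the transcript test found 9% of 2-fold and 50% of 4-fold changes, and the share test 0% and 9.76%, so both miss many changes. Reads that several transcripts share were split by Salmon's model, and all transcript values rest on that split. The labels give no strain for either group, and whether KO and WT differ in the sequence of these genes, which bears on how reads are assigned to transcripts, was not tested.

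**Figure D3:**
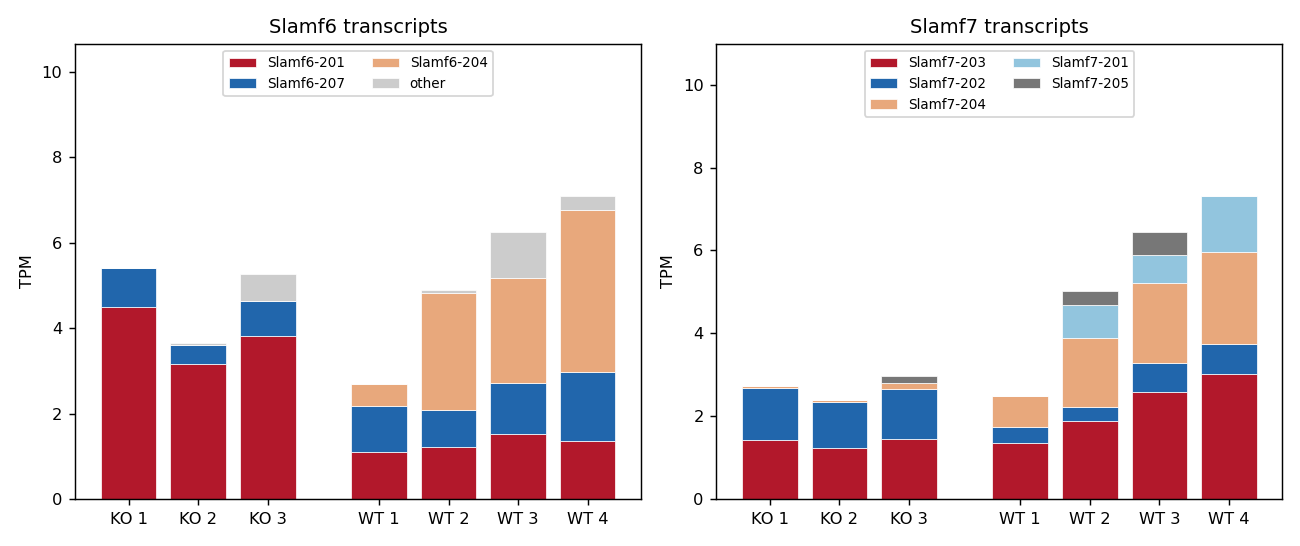
TPM of each transcript of Slamf6 and Slamf7, stacked per library, KO libraries at left and WT libraries at right. Slamf6-201 makes up most of the Slamf6 column in KO (72.5 to 87%) and the smaller part in WT (19.1 to 40.7%), and Slamf7-204 is near 0 in KO.

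In Slamf6 the KO libraries held mainly the transcript with the short tail end, and the WT libraries held mainly those with the long end. Slamf6-201, which has the short end and both switch motifs, had 205, 155 and 184 reads in KO against 61.4, 58.2, 70.9 and 68.2 reads in WT. Every KO library had over 2 times the reads of any WT library. The log2 fold change was 1.41 ± 0.16 (SE; unadjusted p = 4.31e-05, adjusted p = 0.070, edgeR), and DESeq2 gave an adjusted p of 1.1e-09. Slamf6-207, with the long end, had 102, 52.1 and 94.9 reads in KO against 149, 102, 137 and 198 reads in WT (-0.90 ± 0.31, SE; adjusted p = 0.664, edgeR). Its TPM was 0.909, 0.437 and 0.803 in KO and 1.08, 0.873, 1.2 and 1.61 in WT.

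The third form, Slamf6-204, was listed at 0 reads in all 3 KO libraries, against 9.39, 43.6, 38.8 and 62.9 reads in WT. Against a floor of 3 reads per library it was at least 13.4-fold lower in KO, given as a description since it passed the filter on low counts through the WT libraries alone. It is annotated over its coding part alone, so its TPM is set on a short length and its share of the gene is larger in TPM than in reads. WT library 1 held the fewest of its reads.

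Set as a ratio of TPM, Slamf6-201 over Slamf6-207 was 4.94, 7.25 and 4.76 in KO and 1.02, 1.39, 1.26 and 0.843 in WT. The ratio leaves Slamf6-204 out, and its groups stood apart by more than the spread within either. Among coding transcripts, the short end took 83.2, 87.9 and 82.6% of TPM in KO and 40.7, 25.2, 29.3 and 20.1% in WT. The exon with the second switch motif was included in 100% of TPM in each KO library and in 80.8, 43.3, 52.4 and 43.9% in WT. Among the 3 forms compared only Slamf6-204 lacks this exon, so these values restate Slamf6-204 and are a description too. They are lower than they would be in reads. In WT library 2 Slamf6-204 had 43.6 reads and 55.9% of the gene's TPM, and Slamf6-207 had 102 reads and 17.9%. In the share test Slamf6-201 differed by 1.39 ± 0.15 on the log2 scale (SE; unadjusted p = 5.83e-05, adjusted p = 0.119, edgeR with the gene total as offset). Slamf6-207 had an adjusted p of 0.517 there.

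Of the Slamf7 forms that keep the switch motif in frame, Slamf7-203 and Slamf7-204 had fewer reads in every KO library than in any WT library. The whole gene did too, and none of its transcripts was called by edgeR. Slamf7-203 took 48.5 to 51.8% of the gene's TPM in KO and 37.5 to 53.9% in WT, which overlap. Slamf7-204, which has an extended last exon, had 1.88, 1.68 and 4.65 reads in KO against 25.7, 49.6, 57.2 and 69.4 reads in WT. Its KO libraries were all near the floor of 3 reads, so it too passed the filter through the WT libraries alone and its values are a description. Slamf7-201 was listed at 0 reads in all KO libraries and in WT library 1, and had 14.7, 12.2 and 26.1 reads in the other WT libraries. Slamf7-205 was untested, with 0, 0 and 2.48 reads in KO and 0, 5.04, 7.88 and 0 reads in WT.

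Slamf7-202, which skips the frame-setting exon, ran the other way from the gene. It had 28.9, 27.4 and 29.3 reads in KO against 10.7, 8.31, 16.4 and 18.1 reads in WT, without overlap (1.02 ± 0.34, SE; adjusted p = 0.639, edgeR). Slamf7-203, the form with most reads, had 110, 103 and 118 in KO against 126, 153, 206 and 258 in WT (-0.82 ± 0.24, SE; adjusted p = 0.565, edgeR). Slamf7-202 over Slamf7-203 was a TPM ratio of 0.884, 0.897 and 0.837 in KO and 0.289, 0.182, 0.266 and 0.236 in WT. The KO ratios lay within 0.1 of each other and above all WT ratios. The frame-setting exon was in 54.2, 53.8 and 53.7% of TPM in KO and in 84.4, 86.3, 80.8 and 90.2% in WT. These shares depend on annotated length and differ from shares of reads. In KO library 1 Slamf7-202 had 28.9 reads and 45.8% of the gene's TPM, and Slamf7-203 had 110 reads and 51.8%. In WT library 1 they had 10.7 reads and 15.6%, and 126 reads and 53.9%. The extended last exon took 2.4, 2.27 and 11% in KO and 30.5, 39.8, 38.7 and 30.2% in WT. These values sum Slamf7-204 and the untested Slamf7-205, and are a description as those of Slamf7-204 are. In KO library 3 Slamf7-205 had 2.48 reads and 5.75% of the gene's TPM, and Slamf7-204 had 4.65 reads and 5.22%.

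As a share of the gene, Slamf7-202 had a log2 ratio of KO to WT of 1.96 ± 0.27 (SE; adjusted p = 0.247, edgeR with the gene total as offset), and Slamf7-204 took 2.27 to 5.22% of the TPM in KO and 30.1 to 32.9% in WT. Over transcripts of genes with at least 2 tested transcripts, 6.54% had shares of TPM that did not overlap between groups, 3.34% higher and 3.2% lower in KO. Among the 14 members' transcripts so tested it was 5, all in Slamf6 and Slamf7. Slamf6-201 and Slamf7-202 were the 2 higher ones, and Slamf6-204, Slamf6-207 and Slamf7-204 the 3 lower ones. Slamf6-204 and Slamf7-204 passed the filter on low counts through the WT libraries alone, and shares within a gene depend on each other. This count therefore supports nothing here.

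**Figure D4:**
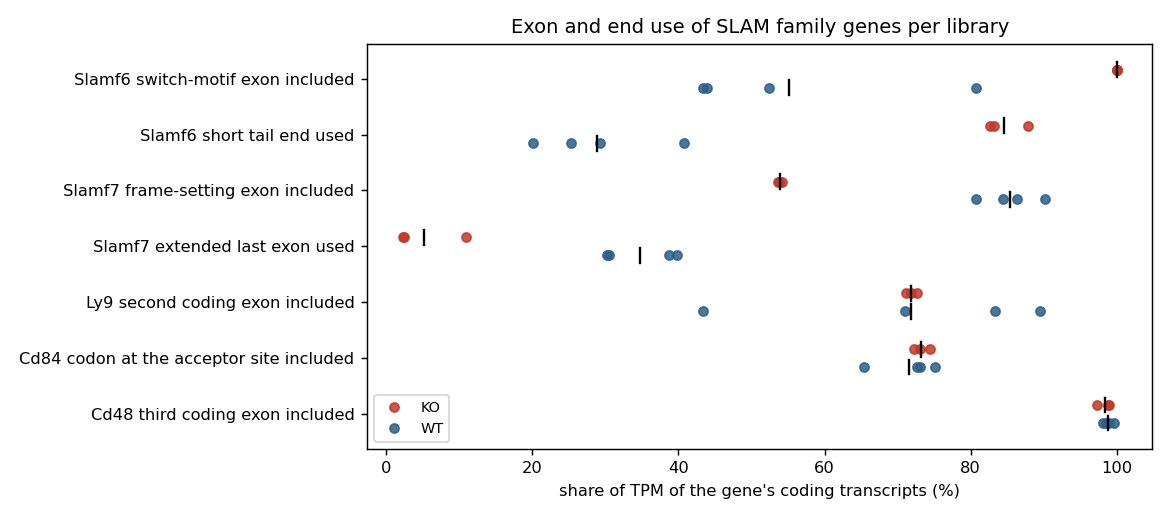
Share of the TPM of coding transcripts that include each named exon or end, in percent, with a point per library (KO above WT in each row) and a line at the mean. The 4 rows of Slamf6 and Slamf7 have no overlap between groups, and the rows of Ly9, Cd84 and Cd48 overlap. The row of the Slamf6 switch-motif exon restates Slamf6-204, listed at 0 reads in all KO libraries. The row of the Slamf7 extended last exon sums Slamf7-204 and the untested Slamf7-205. Slamf7-204 passed the filter on low counts through the WT libraries alone, so this row is a description too. All shares depend on annotated transcript length.

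The exons compared in Ly9, Cd84 and Cd48 overlapped between groups in their use. The second coding exon of Ly9, absent from Ly9-201, was included in 71.2, 71.8 and 72.6% of TPM in KO and in 43.4, 71.1, 83.3 and 89.5% in WT. The WT libraries thus spanned a wide range on both sides of the KO libraries, with WT library 1 lowest. Ly9-204, a form marked for nonsense-mediated decay, had 37.1, 87.3 and 28.2 reads in KO and 24.2, 38.8, 17.0 and 8.23 reads in WT (adjusted p = 0.831, edgeR). In Cd84 a single codon at an acceptor site was included in 72.2 to 74.5% of TPM in KO and 65.5 to 75.1% in WT. Cd84-203, a short coding form left untested, had 12.6, 13.5 and 7.39 reads in KO and 2.07, 1.04, 4.75 and 2.06 reads in WT, without overlap. It took 0.294 to 0.655% of the TPM of Cd84 in KO and 0.0407 to 0.211% in WT. The third coding exon of Cd48 was included in 97.3 to 99.0% of TPM in KO and 98.2 to 99.6% in WT. Slamf9 has 1 annotated transcript, and Slamf8-201 held 97.3 to 100% of the TPM of Slamf8.

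The members lie from 0.760 Mb (Slamf8) to 1.74 Mb (Ly9) before the start of Aim2, so the deleted gene and the family share a stretch of chromosome. Members next to each other differed in sign, and whether KO and WT differ in sequence along this stretch was not tested. Ly9, Slamf7, Cd48 and Slamf1, which follow each other between 1.74 and 1.55 Mb from Aim2, had log2 fold changes of -0.13, -0.98, 0.24 and 1.02. Of 64 other genes within 0.5 Mb of a member 41 were tested, and 3 were called higher and 0 lower, where 0.478% of all tested genes were called higher and 0.169% lower. Their median log2 fold change was 0.01. The 3 were Itln1, Cfap126 and Pcp4l1. Itln1, an intestinal lectin gene, had 48, 25 and 31 reads in KO against 0, 1, 0 and 0 reads in WT. It passed the filter on low counts through the KO libraries alone, so its call had to go this way. Cfap126, a gene of cilia, had 106, 128 and 82 reads in KO against 46, 36, 39 and 40 in WT (1.3 ± 0.22, SE; adjusted p = 0.048, edgeR). Pcp4l1, a relative of a calmodulin-binding neuronal gene, stood 0.98 higher on the log2 scale (adjusted p = 0.0497, edgeR). The count was 0 without WT library 2, and 1 without any of KO libraries 1 or 2 or WT libraries 1, 3 or 4.

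**Figure D5:**
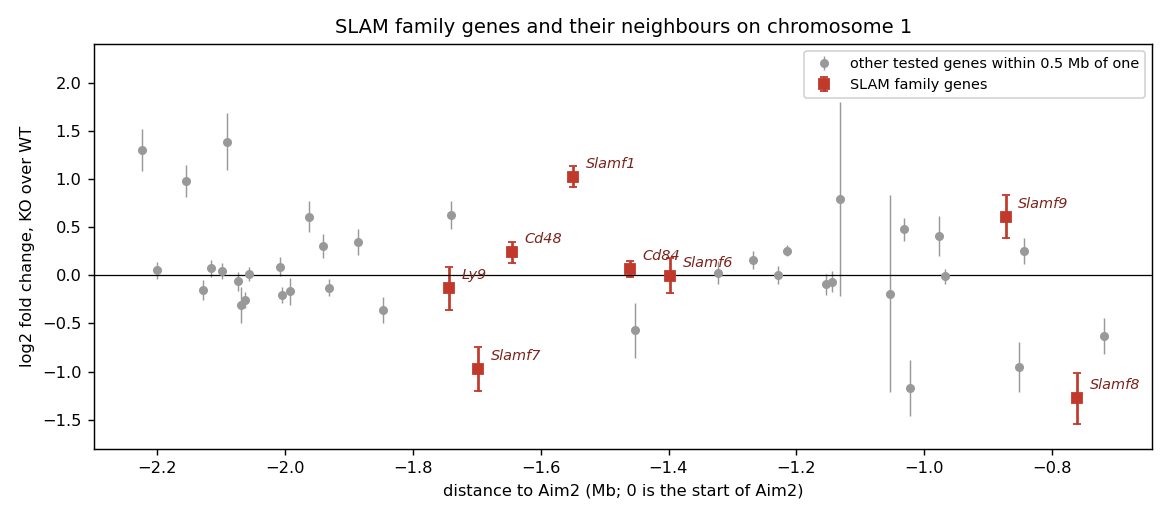
Log2 fold change, KO over WT, with its SE, by distance to Aim2 in Mb, for the 8 SLAM family genes (squares) and for other tested genes within 0.5 Mb of one that averaged 1 CPM or more (circles). Members on both sides of 0 stand next to each other, as Slamf7 (-0.98) and Slamf1 (1.02) do.

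The signalling partners of the family, 23 genes of which 22 were tested, had 0 calls by edgeR, 1 by DESeq2 and a median log2 fold change of 0.04. Unadjusted p was under 0.05 for the 3 genes whose groups did not overlap, a share near that of all tested genes (11.5% by unadjusted p, 12.9% without overlap). They are given next as values. Cd244a, the CD48 receptor whose gene lies in the same cluster, stood at 7.51, 8.5 and 10.2 CPM in KO and 4.77, 5.62, 5.86 and 6.41 CPM in WT (0.62 ± 0.15, SE; adjusted p = 0.143, edgeR). Cd2, the other CD48 receptor, stood at 13, 8.02 and 10.3 CPM in KO and 13.3, 13.4, 17.2 and 17.1 CPM in WT (-0.55 ± 0.18, SE; adjusted p = 0.290, edgeR). Lck, the kinase of T cell receptor signalling, differed by -0.36 on the log2 scale (adjusted p = 0.221, edgeR).

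The adaptors that bind the switch motifs overlapped between groups. Sh2d1a, which encodes SAP, differed by -0.03 ± 0.39 on the log2 scale (SE; adjusted p = 0.987, edgeR) at a mean of 0.912 CPM. Sh2d1b1, which encodes EAT-2, differed by -0.33 ± 0.22 (SE; adjusted p = 0.626, edgeR) at 4.16 CPM. Of the kinases Fyn and Lyn and the phosphatases Ptpn6, Ptpn11, Inpp5d and Ptprc, the log2 fold changes ran between -0.04 and 0.21. Becn1, Pik3c3 and Uvrag, the partners of SLAMF1 on the phagosome, lay between 0.02 and 0.08. Genes further downstream ran from -0.14 (Plcg1) to 0.24 (Plcg2).

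Likeness of profile was measured, for each member, as the mean absolute difference of centred log2(CPM + 0.5) over the 7 libraries, among 13204 genes that averaged 1 CPM or more. The 2 genes most like Slamf1 were Olfm1 and Ly6i, with differences of 0.12 and 0.13 and log2 fold changes of 0.87 and 0.97. Slamf7 was most like Ifi211 and Fcmr (0.12 and 0.13), and Slamf8 was most like Ifi206 and B3gnt7 (0.098 and 0.11). All 4 of these genes also lie on chromosome 1, and their log2 fold changes were -1.01, -1.13, -1.50 and -1.15. Ifi211 was itself called lower (adjusted p = 0.035, edgeR). None of the 4 is among the 41 tested genes within 0.5 Mb of a member, and their distance to Aim2 was not measured. The share of compared genes that lie on chromosome 1 was not measured. Slamf9 was most like Aebp1 and BC147527, Cd48 like Wdr1 and Hpcal1, Cd84 like Nynrin and Pelp1, Ly9 like Abcc3 and Sgk1, and Slamf6 like Relb and Zfp870. These 10 genes lie on other chromosomes, and 7 libraries are too few to read more than a description from likeness.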

How the data were processed

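Bone marrow RNA was made into 3 KO and 4 WT strand-specific mRNA libraries (DNBSEQ), per the labels' protocols. The submitters' processing notes name FastQC 0.11.9, Salmon 1.7.0, DESeq2 and the build GRCm38.p6, and the columns are those Salmon writes, per the file headers. Salmon's options and annotation release are not given in the sources used here. Per transcript (116546 in all), the authors deposited an estimated count and a TPM value, scaled for effective length.

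Transcripts were joined to GENCODE M21 genes by identifier, 569 had no gene (at most 0.0662% of reads), and estimated counts and TPM were summed per gene. Rounded counts were filtered with filterByExpr, scaled with TMM (factors 0.918 to 1.06) and tested with edgeR 4.0.16 in R 4.3.3, with genotype alone in the model. Transcripts were tested the same way. CPM values are reads over the TMM-scaled library size, and SE is the log2 fold change over the root of F.

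Alternatives were DESeq2 1.42.0, limma 3.58.1 (voom weights, log2(TPM + 0.1), log2(TPM + 1)), other scalings and filters, a length offset, coding transcripts alone, a block on the library number, and each library left out. The test of transcript share was chosen after edgeR's diffSpliceDGE had, on simulated data, made calls of which 67.3% were wrong. On simulated counts the gene test called 64% of 2-fold and 94% of 4-fold changes, with 6.51% of calls wrong.

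The members and gene lists were chosen with earlier results of these data known. Named were all members, their transcripts with a mean of at least 5 reads, list genes that were called or otherwise had the 2 smallest p, and the 2 genes most like each member. Beyond that rule, Slamf7-205, the third partner (Lck) and the partners given by range were named after their values were seen. The rule also names cell type markers, given here as sums except for the T cell markers named above and the 2 called. The 2 called were Cd300e, higher (log2 fold change 2.41, adjusted p = 0.011, edgeR), and Cd209a, lower (-1.35, adjusted p = 0.021, edgeR). The median log2 fold changes of the marker lists were -0.93 (B cells), 0.53 (plasma cells), -0.30 (T cells), 0.17 (natural killer cells), 0.26 (monocytes and macrophages), -0.13 (dendritic cells), 0.07 (plasmacytoid dendritic cells), 0.24 (neutrophils), 0.09 (stem and progenitor cells), 0.06 (megakaryocytes), -0.33 (erythroid cells), 0.53 (skeletal muscle) and -0.03 (adipocytes).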

Additional observations from a re-analysis of the deposited data

Results flagged for a closer look

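Of 34 sets of WT values examined, 2 held a library far from the others. By chance about 1 in 20 sets would, so the count is near that of chance. The share of Slamf7-204 in the TPM of Slamf7 was 32.9% in WT library 2 and 30.1 to 30.5% in the other WT libraries, against 2.27 to 5.22% in KO. The share of Slamf8-201 was 97.3% in WT library 1, where 1 read went to a retained-intron form, and 100% in the other WT libraries, with 100% in each KO library too. With the other WT libraries tied at 100%, any differing value would have been flagged.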

How the results depend on the processing

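The number of genes changed was 92. It was 405 with DESeq2, 305 with voom weights, 49 on log2(TPM + 0.1), 50 on log2(TPM + 1), 55 with a length offset and 17 to 65 with 1 library left out. The share of higher calls was 73.9%, against 60% with voom, 87.8% and 90% on the TPM scales, which moved the median of all genes to 0.13 and 0.10 on the log2 scale, and 91.7 to 95.5% when KO library 2 or WT library 2 or 3 was left out. Of the 8 members 1 was called, against 3 with DESeq2 or voom and 0 to 2 with a library left out (0 without KO library 2, 2 without WT library 1). Members' transcripts called numbered 5 with DESeq2 and 0 otherwise, and partners 1 with DESeq2. The 3 genes called beside the members were 7 with DESeq2, 1 with a length offset and 0 to 2 with a library left out. For transcript usage, diffSpliceDGE called 1 member transcript (Slamf6-204), limma's diffSplice 0, and diffSpliceDGE 0 to 2 with a library left out; no statement rests on it. In the fit with the library number as a block, 21 genes, 0 members and 0 neighbours were called. Deviations of same-numbered libraries correlated at 0.12, -0.04 and -0.27, and those of differently numbered libraries at -0.23 to 0.26. So few correlations cannot decide whether the numbers pair the libraries. Directions turned for values near 0, and the cause was not tested. Under the block they were 0.12 for Slamf6, 0.049 for Ly9, -0.10 for Ly9-201 and 0.15 for Ly9-202. On log2(TPM + 0.1) Ly9 was 0.055, Cd84-204 0.13 and Ly9-202 0.046, and on log2(TPM + 1) Ly9 was 0.048. Cd84 was -0.0032 with voom. With 1 library left out, Slamf6 ran from -0.12 to 0.13, Ly9 from -0.31 to 0.017, Cd84-204 from -0.13 to 0.15, Ly9-201 from -0.13 to 0.30 and Ly9-202 from -0.53 to 0.027. They turned without KO library 2 (Slamf6, Cd84-204), KO library 1 (Ly9-201), WT library 4 (Slamf6, Ly9, Ly9-201, Ly9-202), WT library 3 (Ly9-201) or WT library 2 (Cd84-204). Slamf6-204 and Slamf7-201 gave no value without WT library 2, 3 or 4, and Slamf7-201 none under the stricter filter, since they had too few reads to be tested there. Depth limits Slamf8 and the transcripts of Slamf6 and Slamf7, most of which had under 200 reads per library.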
